A study of Mus musculus with 6 samples.

Results

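Cholesterol synthesis, uptake and export were followed through 28 genes, listed by name for their roles in the pathway, with earlier results of these data known. The list holds 18 synthesis enzymes, 5 genes that control the pathway, 3 carriers of sterol inside the cell and 2 exporters. A probe set annotated with that gene symbol alone was present for 27 of the 28 genes, out of 19938 genes on the array with such a probe set, and Acat2 was not analysed here. The cells were mouse lung endothelial cells (lECs) of C57BL/6 background. In the L1CAM group (3 arrays) they had been stably transfected with pcDNA3.1/Hygro(-) carrying full-length mouse L1CAM, a cell adhesion molecule best known from neurons, and in the control group (3 arrays) with the same vector left empty. Both groups grew for 4 days to confluence on crosslinked gelatin, in medium with 20% fetal bovine serum, heparin and endothelial growth supplement. The labels do not say whether each transfectant was a pool or 1 clone, and every p-value here rests on the spread among 3 cultures of each transfectant.

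Cells obtain cholesterol by making it from acetyl-CoA or by taking up lipoproteins. Synthesis runs through mevalonate to farnesyl pyrophosphate, then through squalene and a chain of sterol intermediates. When sterol in the endoplasmic reticulum is low, SCAP carries the SREBP transcription factors to the Golgi, where proteases release them, and they then raise the genes of synthesis and uptake. INSIG proteins hold SCAP back when sterol is plentiful. Oxysterols, which accumulate when sterol is plentiful, activate the LXR receptors, and these raise the exporters ABCA1 and ABCG1. Endothelial cells in culture express both arms.

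L1cam itself, the transfected gene, read 10.49, 10.60 and 10.73 on the L1CAM arrays, against 6.50, 6.77 and 7.31 on the control arrays (log2 expression), so the arrays matched their labels. L1CAM replicate 1 stood apart: across genes it correlated with the other L1CAM arrays at 0.9948 and 0.9951, while those 2 arrays correlated with each other at 0.9986. It correlated with control replicates 1, 2 and 3 at 0.9952, 0.9935 and 0.9938, so it was as close to control replicate 1 as to its own group. A list of 9 measured proliferation genes was lower in L1CAM cells, and replicate 1 was much nearer to the control arrays. The mean of that list lay at -0.47, -1.74 and -1.64 in L1CAM replicates 1, 2 and 3, and at -0.26, 0.17 and 0.09 in control replicates 1, 2 and 3 (log2, relative to the control mean). The proliferation values are set beside the cholesterol genes below, and their part in the results was not tested. All 9 endothelial markers measured, among them Cdh5 and Pecam1, lay above the array median on every array, and their summed log2 level was 101.2 to 101.5 on L1CAM arrays and 102 to 102.2 on control arrays. Of these markers 1 was called, Cldn5 (-0.22, limma adjusted p = 0.0446). Cldn5 and Vwf were the dimmest of the endothelial markers, with L1CAM means of 6.86 and 6.84, not far above the array medians. Of markers of other cell types, 0 of 4 epithelial, 1 of 4 mural, 2 of 4 fibroblast and 2 of 5 macrophage genes lay above the median on all arrays, and 0 of these 17 differed between the groups past the threshold. The macrophage genes above it were Cd68 and Lyz2, while Ptprc, Adgre1 and Csf1r lay below it on every array. The fibroblast genes above it were Col1a1 and Pdgfra, with L1CAM means of 7.66 and 7.42, higher than those of Cldn5 and Vwf. Arrays of bulk RNA cannot tell fewer cells of a type from less RNA per cell.

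Of the 27 measured members, 8 were lower and 0 were higher in L1CAM cells at a limma adjusted p under 0.05. Over all genes tested, 8.19% were lower, 6.85% were higher and 15.0% were called in either direction. At an unadjusted p under 0.05, 16 members were lower and 0 were higher, while 14.1% of all genes were lower and 15.0% were higher. The members that fell were the synthesis enzymes Idi1, Fdft1, Cyp51, Tm7sf2 and Sc5d, the sterol carrier Stard4 and both exporters, Abca1 and Abcg1. The median difference of the members was -0.18 on the log2 scale (L1CAM minus control), against 0.02 for all genes. The 3 L1CAM arrays lay wholly outside the range of the control arrays for 17 of the 27 members, 16 of them lower, while 34.6% of all genes were separated in this way and 16.0% were separated with the L1CAM arrays lower. The number of members that fell was 14 when L1CAM replicate 1 was left out, a fit that called 24.8% of all genes in either direction. It was 4 with L1CAM replicate 2 left out, and 3 when L1CAM replicate 3 or either of control replicates 2 and 3 was. These 4 fits called 5.18% to 6.85% of all genes. Without control replicate 1 the same 8 members fell, in a fit that called 9.07% of all genes. Tm7sf2, Abca1 and Abcg1 were called whichever of the 6 arrays was left out.

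**Figure D1:**
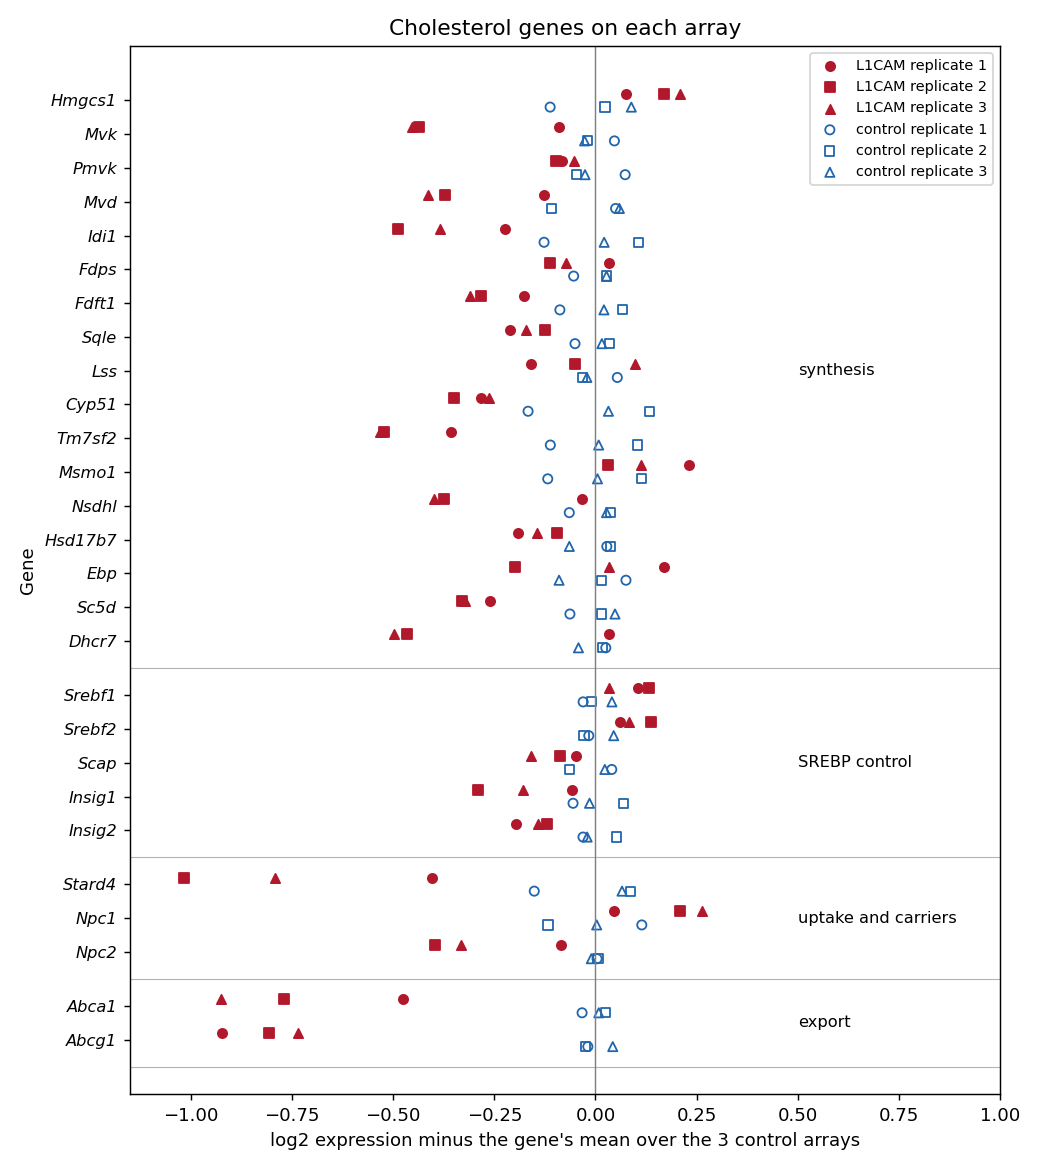
Expression of the 27 measured members on each array, as log2 expression minus the gene's own mean over the 3 control arrays (horizontal axis), with genes down the page by role. Filled red symbols are L1CAM arrays and open blue symbols control arrays, with circle, square and triangle for replicates 1, 2 and 3. Stard4, Abca1 and Abcg1 lie farthest to the left, and for many enzymes L1CAM replicate 1 lies nearest to the controls.

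The enzymes from acetyl-CoA to farnesyl pyrophosphate showed 1 fall among 6 measured, where 8.19% of all genes were lower. Idi1, the isomerase that makes dimethylallyl pyrophosphate, read 9.66, 9.40 and 9.50 in L1CAM replicates 1, 2 and 3, against 9.76, 9.99 and 9.91 in control replicates 1, 2 and 3 (log2). All 3 L1CAM arrays were below all control arrays, but L1CAM replicate 1 and control replicate 1 differed by little. This 1.29-fold fall (-0.37, SE 0.09) had an adjusted p of 0.0321. The probe set used is numbered among those of chromosome 2 genes (19 of its 20 nearest neighbours), whereas Idi1 lies on chromosome 13. A second Idi1 probe set, numbered among chromosome 13 genes (20 of 20), also gave -0.37.

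Mvk, the kinase that phosphorylates mevalonate, and Mvd, the decarboxylase that forms isopentenyl pyrophosphate, came close to the threshold. Mvk measured 8.83 ± 0.20 in L1CAM cells and 9.16 ± 0.04 in control cells (log2, SD, n = 3 each), a difference of -0.33 with an adjusted p of 0.0659. Mvd measured 8.78 ± 0.15 in L1CAM cells and 9.08 ± 0.09 in control cells, a difference of -0.31 with an adjusted p of 0.0598. In both genes L1CAM replicate 1 was the highest of the L1CAM arrays, and without it Mvk gave -0.45 (adjusted p = 0.000872) and Mvd -0.39 (adjusted p = 0.00441). That fit called 24.8% of all genes, against 15.0% with all arrays. No other left-out fit called either gene (adjusted p up to 0.202 for Mvk and 0.188 for Mvd). The first enzyme in the list that was measured, Hmgcs1, which makes HMG-CoA, had a difference of the other sign, 0.15 (adjusted p = 0.209), and its groups overlapped. Pmvk, the second mevalonate kinase (-0.08, adjusted p = 0.426), and Fdps, the synthase of farnesyl pyrophosphate (-0.05, adjusted p = 0.644), did not pass either.

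The steps from squalene to cholesterol showed 4 falls and 0 rises among 11 measured enzymes, where 8.19% of all genes were lower and 6.85% higher. Tm7sf2, a sterol C14 reductase, read 7.19, 7.02 and 7.01 in L1CAM replicates 1, 2 and 3, against 7.43, 7.65 and 7.55 in control replicates 1, 2 and 3. The groups did not overlap, and the difference of -0.47 (SE 0.08), 1.39-fold lower, had an adjusted p of 0.00843. This was the synthesis enzyme of largest difference. Sc5d, the desaturase that acts on lathosterol, read 9.94, 9.87 and 9.88 in L1CAM replicates 1, 2 and 3, against 10.14, 10.22 and 10.25 in control replicates 1, 2 and 3. Its L1CAM arrays lay close together and below all controls, with a difference of -0.30 (SE 0.06) and an adjusted p of 0.0126.

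Cyp51, the lanosterol demethylase, and Fdft1, squalene synthase, also fell. Cyp51 read 8.82, 8.75 and 8.84 in L1CAM replicates 1, 2 and 3, against 8.93, 9.23 and 9.13 in control replicates 1, 2 and 3, 1.23-fold lower (-0.30, SE 0.08, adjusted p = 0.0488). Control replicate 1 was the nearest of the controls to the L1CAM arrays. Fdft1 read 11.31, 11.20 and 11.18 in L1CAM replicates 1, 2 and 3, against 11.40, 11.55 and 11.51 in control replicates 1, 2 and 3, a difference of -0.26 (SE 0.07, adjusted p = 0.0383). A second Fdft1 probe set gave -0.23, and with its probe sets averaged Fdft1 gave -0.24 and lost its call (adjusted p = 0.0502). Other scalings kept the direction of both genes. With array medians set equal, Cyp51 gave -0.27 (adjusted p = 0.066) and Fdft1 -0.23 (adjusted p = 0.0511). After a second quantile normalization, Cyp51 gave -0.27 (adjusted p = 0.0719), while Fdft1 kept its call at -0.28 (adjusted p = 0.0358). Idi1, Fdft1, Cyp51 and Sc5d each lost their call without L1CAM replicate 2 or 3 or control replicate 2 or 3, where the highest adjusted p was 0.122 for Idi1, 0.142 for Fdft1, 0.157 for Cyp51 and 0.0618 for Sc5d.

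Sqle, squalene epoxidase, a rate-limiting enzyme of the sterol steps, read 10.35, 10.44 and 10.39 in L1CAM replicates 1, 2 and 3, against 10.51, 10.60 and 10.58 in control replicates 1, 2 and 3. The groups did not overlap, but the difference of -0.17 had an adjusted p of 0.0812. Hsd17b7, a keto-reductase of sterol demethylation, was likewise separated without passing (-0.14, adjusted p = 0.144). Dhcr7, which reduces 7-dehydrocholesterol to cholesterol, read 8.21, 7.71 and 7.68 in L1CAM replicates 1, 2 and 3, against 8.20, 8.19 and 8.13 in control replicates 1, 2 and 3. Here L1CAM replicate 1 was at the level of the controls and the other L1CAM arrays were below them. Over all arrays the difference was -0.31 (adjusted p = 0.174), and without L1CAM replicate 1 it was -0.48 (adjusted p = 0.000568). Nsdhl, a dehydrogenase of sterol demethylation on chromosome X, showed the same order, with -0.27 (adjusted p = 0.121) over all arrays and -0.39 (adjusted p = 0.00227) without L1CAM replicate 1. No other left-out fit called either gene (adjusted p up to 0.42 for Dhcr7 and 0.322 for Nsdhl).

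The remaining sterol enzymes overlapped between the groups. Msmo1, the methyl sterol oxidase, gave 0.12 (adjusted p = 0.366). Lss, lanosterol synthase, gave -0.04 (adjusted p = 0.794). Ebp, a sterol isomerase on chromosome X, gave 0.00 (SE 0.10, adjusted p = 0.994). The signs of Lss and Ebp turned when L1CAM replicate 1 was left out (0.02 and -0.08), neither past the threshold.

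Promoter windows from RefSeq (GRCm38.p6), reaching from 250 bases before to 50 bases after each annotated start, were available for 21 of the 27 measured members. They were searched on both strands for TCACNCCAC, a core of the sterol regulatory element that SREBP proteins bind, and for CCAAT and GGGCGG, the boxes of NF-Y and Sp1, which act beside SREBP at sterol genes. The 3 motifs do not contain each other, and a gene was counted if any of its windows held the motif. CCAAT was present for 14 of 14 synthesis enzymes with a window and for 41.1% of all 27025 genes. GGGCGG was present for 13 of those 14 and for 38.2% of all genes. Neither box was particular to synthesis or to the genes that fell. Of all 21 members with a window, 19 had CCAAT and 20 had GGGCGG, called and uncalled genes among them. Abca1 was the only exporter with a window, so these letters give no contrast of synthesis with export. TCACNCCAC was present for Hmgcs1 alone among the 21 members (4.76%), and for 1.44% of all genes. A match is a description of these letters and does not show binding.

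The windows below are shown because they set the synthesis enzymes called with the smallest p, Tm7sf2 and Sc5d, beside Hmgcs1, which was not called, and the exporter Abca1. They were chosen after the values were seen. Capitals mark CCAAT on either strand (ATTGG where it is on the other strand) and, in Hmgcs1, the TCACNCCAC match.

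Tm7sf2, chr19:6067801-6068100, minus strand: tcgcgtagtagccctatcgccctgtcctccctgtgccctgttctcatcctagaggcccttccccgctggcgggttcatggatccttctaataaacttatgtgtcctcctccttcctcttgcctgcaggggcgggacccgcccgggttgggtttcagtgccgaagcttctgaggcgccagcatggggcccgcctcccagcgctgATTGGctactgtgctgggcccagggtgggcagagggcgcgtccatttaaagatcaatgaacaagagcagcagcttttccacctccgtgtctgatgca

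Sc5d, chr9:42264251-42264550, minus strand: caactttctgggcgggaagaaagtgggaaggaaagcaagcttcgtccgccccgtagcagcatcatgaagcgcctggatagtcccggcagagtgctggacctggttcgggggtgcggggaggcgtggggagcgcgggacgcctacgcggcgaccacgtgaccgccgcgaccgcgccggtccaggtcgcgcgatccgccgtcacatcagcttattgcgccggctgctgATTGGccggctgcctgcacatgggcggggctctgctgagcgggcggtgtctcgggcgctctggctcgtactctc

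Hmgcs1, chr13:119690101-119690400, plus strand: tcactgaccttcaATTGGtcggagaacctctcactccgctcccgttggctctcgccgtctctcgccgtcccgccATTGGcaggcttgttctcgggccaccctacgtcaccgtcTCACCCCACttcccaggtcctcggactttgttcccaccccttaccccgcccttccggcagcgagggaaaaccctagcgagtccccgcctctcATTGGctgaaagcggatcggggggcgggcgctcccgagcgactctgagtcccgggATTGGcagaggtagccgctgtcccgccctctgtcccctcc

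Abca1, chr4:53159846-53160145, minus strand: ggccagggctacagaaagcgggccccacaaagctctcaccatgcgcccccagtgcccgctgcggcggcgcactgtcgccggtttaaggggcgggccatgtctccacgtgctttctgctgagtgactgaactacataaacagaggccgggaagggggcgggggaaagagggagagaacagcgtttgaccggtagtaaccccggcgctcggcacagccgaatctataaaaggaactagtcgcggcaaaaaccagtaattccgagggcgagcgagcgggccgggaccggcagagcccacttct

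The single CCAAT box of Tm7sf2 begins 47 bases before the annotated start and that of Sc5d 24 bases before it, both on the other strand. The Hmgcs1 window holds 4 CCAAT boxes and the sterol element match, which begins 137 bases before the start. The Abca1 window holds 0 CCAAT boxes and 2 GGGCGG boxes.

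Of the 5 genes of SREBP control, 0 passed limma's test in either direction, and 2 (Insig1 and Insig2) were lower at an unadjusted p under 0.05, where 14.1% of all genes were lower. Srebf2, which encodes the SREBP most tied to cholesterol synthesis, read 10.54, 10.62 and 10.56 in L1CAM replicates 1, 2 and 3, against 10.46, 10.45 and 10.52 in control replicates 1, 2 and 3. The L1CAM arrays were all above the controls, by a small amount (0.09, adjusted p = 0.309). Srebf1, whose products act mainly on fatty acid genes, gave 0.09 (adjusted p = 0.338) with overlapping groups. Scap, the escort of SREBP, gave -0.10 (adjusted p = 0.328).

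Insig1, itself a target of SREBP, measured 10.80 ± 0.12 in L1CAM cells and 10.97 ± 0.06 in control cells (log2, SD, n = 3 each). The difference was -0.18 (adjusted p = 0.162), and without L1CAM replicate 1 it was -0.23 (adjusted p = 0.036). No other left-out fit called Insig1 (adjusted p up to 0.397). Insig2, its relative, gave -0.15 (adjusted p = 0.106), with all 3 L1CAM arrays below the controls.

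Among the sterol carriers, 1 of 3 fell, where 8.19% of all genes were lower. Stard4, a soluble protein that moves cholesterol between membranes, read 9.32, 8.71 and 8.94 in L1CAM replicates 1, 2 and 3, against 9.57, 9.81 and 9.79 in control replicates 1, 2 and 3. The groups did not overlap, and L1CAM replicate 1 was nearest to the controls. Stard4 was 1.67-fold lower (-0.74, SE 0.15, adjusted p = 0.0174). Its adjusted p became 0.0678 when L1CAM replicate 3 was left out, 0.0781 when control replicate 2 was and 0.0772 when control replicate 3 was.

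Npc2 and Npc1 hand cholesterol from endocytosed lipoproteins out of the lysosome, and neither passed. Npc2, the soluble lysosomal protein, read 10.11, 9.80 and 9.86 in L1CAM replicates 1, 2 and 3, against 10.20, 10.20 and 10.18 in control replicates 1, 2 and 3. The controls were tight and all L1CAM arrays lay below them, with a difference of -0.27 (adjusted p = 0.0697), and of -0.36 without L1CAM replicate 1 (adjusted p = 0.00216). No other left-out fit called Npc2 (adjusted p up to 0.204). Npc1, the membrane partner, had a difference of the other sign, 0.17 (adjusted p = 0.221), with overlapping groups.

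Both exporters fell. Abcg1, the transporter that loads cholesterol onto mature HDL particles, read 8.01, 8.13 and 8.20 in L1CAM replicates 1, 2 and 3, against 8.92, 8.91 and 8.98 in control replicates 1, 2 and 3. The groups were far apart and L1CAM replicate 1 was the lowest of all, so here it did not lie toward the controls. Abcg1 was 1.77-fold lower (-0.82, SE 0.06, adjusted p = 0.000513, the smallest among the members). Leaving out any array gave adjusted p between 6.83e-05 and 0.00612.

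Abca1, the transporter that passes cholesterol and phospholipid to lipid-poor apolipoprotein A-I, read 10.75, 10.46 and 10.30 in L1CAM replicates 1, 2 and 3, against 11.19, 11.25 and 11.23 in control replicates 1, 2 and 3. The controls lay within a narrow band and every L1CAM array was below it, replicate 1 the least. Abca1 was 1.65-fold lower (-0.72, SE 0.11, adjusted p = 0.00562). Leaving out any array gave adjusted p between 7.46e-05 and 0.0342.

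**Figure D2:**
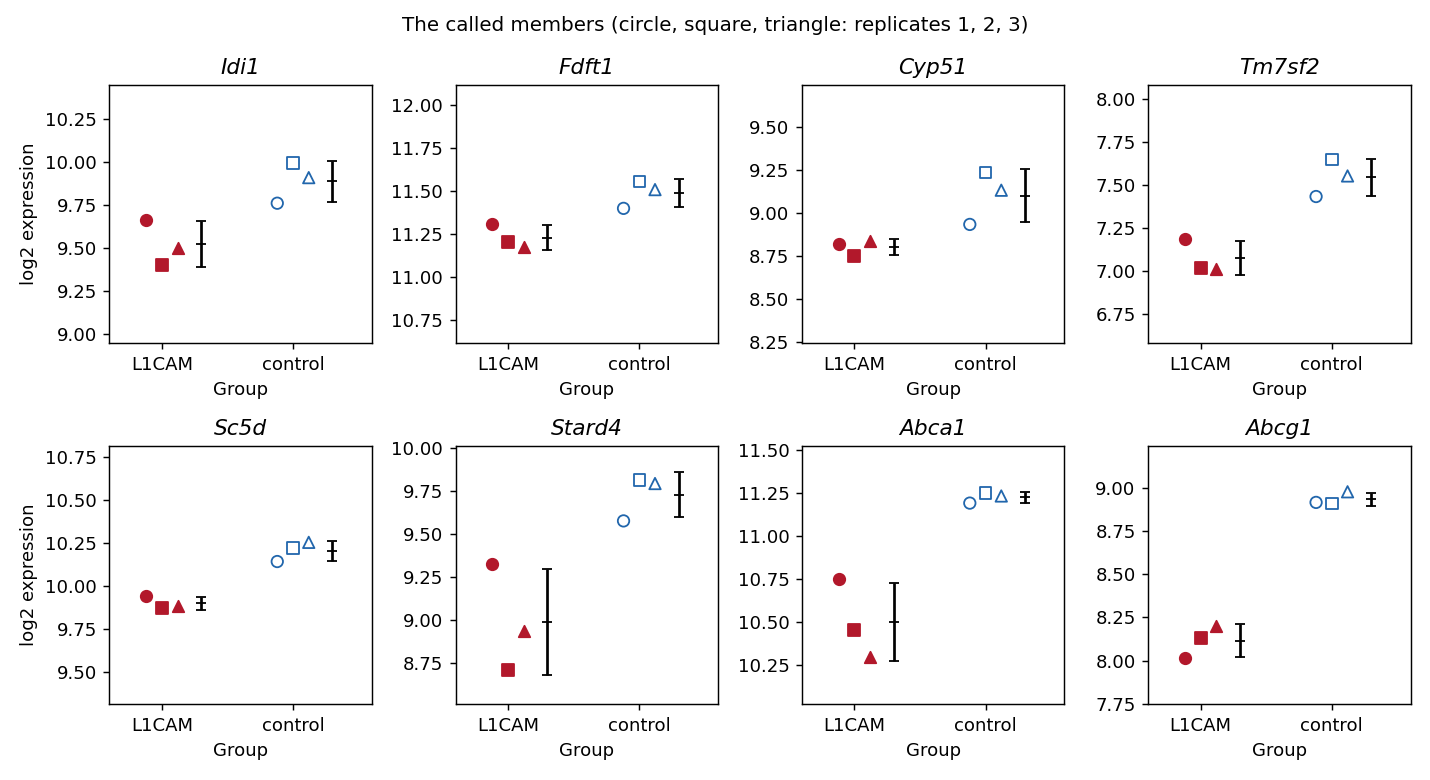
Log2 expression of the 8 members that fell, with the L1CAM arrays (filled red) left of the control arrays (open blue) in each panel and the mean ± SD of 3 arrays beside them. All panels span the same log2 range. The groups do not overlap in any of the 8, and the gap is widest for Abcg1.

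Export was lower by more than synthesis on each of the 3 L1CAM arrays. Relative to the control mean, the mean of the 17 measured synthesis enzymes lay at -0.10, -0.24 and -0.21 in L1CAM replicates 1, 2 and 3, and at -0.03, 0.03 and 0.01 in control replicates 1, 2 and 3 (log2). The mean of the 2 exporters lay at -0.70, -0.79 and -0.83 in L1CAM replicates 1, 2 and 3, and at -0.03, 0.00 and 0.02 in control replicates 1, 2 and 3. Each L1CAM array lay below all control arrays in both means.

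Synthesis minus export averaged 0.59 ± 0.04 in L1CAM cells and 0.00 ± 0.03 in control cells (log2, SD, n = 3 each). No p is given for this value, because the members were chosen with results known. With any array left out it stayed between 0.57 and 0.61. The export mean rests on 2 genes and the synthesis mean on 17, of which 14 had a negative difference and 3 a positive one. Over all 19938 genes, 8569 differences were negative and 11369 positive.

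L1CAM replicate 1, the array nearest to the controls in its proliferation genes (-0.47, against -1.74 and -1.64 in replicates 2 and 3), was also nearest in the synthesis mean. It was the highest L1CAM array for 14 of the 21 members with a negative difference, and the lowest for 5, Sqle, Lss, Hsd17b7, Insig2 and Abcg1. The same count was not made over all genes, across which replicate 1 also stood apart, so it cannot be read as particular to the members. In the export mean replicate 1 was also the least negative, at -0.70 against -0.79 and -0.83. The 2 exporters differed there: replicate 1 was the L1CAM array nearest to the controls for Abca1 and the farthest from them for Abcg1.

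**Figure D3:**
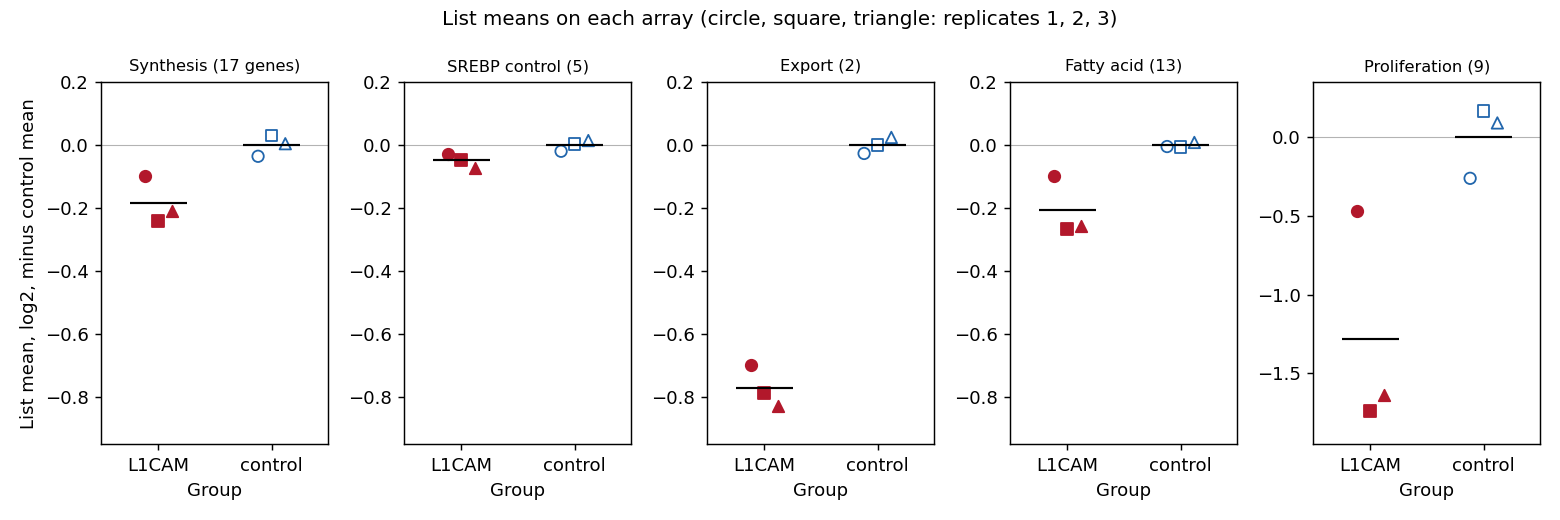
Mean log2 difference from the control mean on each array for 5 lists, with L1CAM arrays (filled red) left of control arrays (open blue) and bars at the group means. The export mean lies between -0.70 and -0.83 on the L1CAM arrays, and the synthesis, export, fatty acid and proliferation means are all least negative in replicate 1; the proliferation panel has a wider axis.

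Genes that neighbour the pathway were taken as 5 further lists with 67 entries, of which 58 were measured. Of these, 5 rose and 10 fell, against 6.85% higher and 8.19% lower over all genes, and the median difference was 0.00. The 4 that were called whichever array was left out, Lpcat3, Gramd1a, Gramd1c and Lpin1, all fell.

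Genes of fatty acid and lipid synthesis listed as SREBP targets had 5 falls and 0 rises among 13. Over all genes 8.19% were lower and 6.85% higher. At an unadjusted p under 0.05, 6 of the list were lower and 0 higher, against 14.1% and 15.0% of all genes. Lpin1, a phosphatidic acid phosphatase, read 7.32, 6.97 and 7.04 in L1CAM replicates 1, 2 and 3, against 8.13, 8.39 and 8.34 in control replicates 1, 2 and 3. The groups were well separated, with a difference of -1.18 (SE 0.11), 2.26-fold lower, and an adjusted p of 0.000901. Fads2, a fatty acid desaturase (-0.47, adjusted p = 0.0219), and Elovl6, a fatty acid elongase (-0.30, adjusted p = 0.014), also fell, as did Fasn (-0.30, adjusted p = 0.0403) and Elovl5 (-0.25, adjusted p = 0.0453). Fads2, Fasn and Elovl5 lost their calls when any array other than L1CAM replicate 1 was left out (adjusted p up to 0.0899, 0.14 and 0.145), and Elovl6 without L1CAM replicate 2 or 3 or control replicate 2 or 3 (up to 0.0655). The mean of this list lay at -0.10, -0.27 and -0.26 in L1CAM replicates 1, 2 and 3, and at 0.00, -0.01 and 0.01 in control replicates 1, 2 and 3. Lpin1, which is not itself an enzyme of fatty acid synthesis, had the largest difference and weighs on this mean. The median difference of the list was -0.125, with 10 genes negative and 3 positive, against 8569 negative and 11369 positive over all genes.

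LXR receptors, LXR targets and oxysterol enzymes had 2 falls and 0 rises among 11 measured, against 8.19% lower and 6.85% higher over all genes. At an unadjusted p under 0.05, 2 were lower and 1, Rxrb, was higher. In this list, which does not hold Abca1 and Abcg1, 6 differences were positive and 5 negative, with a median of 0.08. Over all genes 11369 were positive and 8569 negative. Nr1h3, Mylip, Ch25h, Cyp27a1, Cyp7b1 and Smpdl3a had a group mean below the array medians, so the sizes of their differences are not exact. The difference of largest size in the list was that of the LXR target Smpdl3a (0.42, adjusted p = 0.377), whose groups overlapped. Nr1h2, the other LXR receptor gene listed, was not measured. Lpcat3, a phospholipid acyltransferase and LXR target, read 11.16, 11.10 and 11.16 in L1CAM replicates 1, 2 and 3, against 11.52, 11.55 and 11.51 in control replicates 1, 2 and 3. Both groups were tight, and the difference of -0.39 (SE 0.05) had an adjusted p of 0.0038. Abca2, a lysosomal transporter related to Abca1, fell by 0.28 on the log2 scale (adjusted p = 0.0184) and lost its call without L1CAM replicate 2 or 3 or control replicate 2 or 3 (up to 0.0791). Mylip, the LXR target that degrades lipoprotein receptors, gave -0.06 (adjusted p = 0.798), and Nr1h3, the gene of LXR-alpha, 0.09 (adjusted p = 0.377), with means below the array medians in both groups for both genes.

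Among uptake receptors, ester enzymes and sterol transfer proteins, 1 of 15 measured genes rose and 3 fell. Over all genes 6.85% were higher and 8.19% lower. Vldlr, a lipoprotein receptor, read 11.12, 11.50 and 11.41 in L1CAM replicates 1, 2 and 3, against 10.78, 10.85 and 10.81 in control replicates 1, 2 and 3. Its groups did not overlap, and it was 1.44-fold higher (adjusted p = 0.012), a call lost without L1CAM replicate 3 (0.0531), control replicate 2 (0.0517) or control replicate 3 (0.0568). Gramd1c (-0.53, adjusted p = 0.00712) and Gramd1a (-0.39, adjusted p = 0.00735) belong to the Aster proteins, which carry cholesterol from the plasma membrane to the endoplasmic reticulum. Both fell, and the remaining Aster gene, Gramd1b, gave -0.20 (adjusted p = 0.0911), with all L1CAM arrays below the controls. Gramd1c lay below the array medians, so its size is not exact. Scarb1, the HDL receptor, fell by 0.31 on the log2 scale (adjusted p = 0.0329), a call lost when any array other than L1CAM replicate 1 was left out (up to 0.118).

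The isoprenoid branch leaves the pathway at farnesyl pyrophosphate. At an unadjusted p under 0.05, 4 of its 12 measured genes were higher and 0 lower, against 15.0% and 14.1% of all genes. By adjusted p, where 6.85% of all genes were higher and 8.19% lower, the branch had 0 falls and 3 rises. These were Ggps1, the synthase of geranylgeranyl pyrophosphate (0.28, adjusted p = 0.0218), Pggt1b, a subunit of geranylgeranyl transferase (0.23, adjusted p = 0.0454), and Pdss2, a subunit that makes the ubiquinone side chain (0.23, adjusted p = 0.0392). Ggps1 lost its call when any array other than L1CAM replicate 1 was left out (up to 0.0901). Pggt1b lost it without L1CAM replicate 2 or 3 or control replicate 2 or 3 (up to 0.157), and Pdss2 without L1CAM replicate 3 or any control array (up to 0.138). Of 7 measured genes for SREBP proteases and sterol-regulated degradation, 1 rose, Erlin2, an endoplasmic reticulum membrane protein (0.21, adjusted p = 0.0462). It was not called when any array was left out (0.0521 to 0.138).

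**Figure D4:**
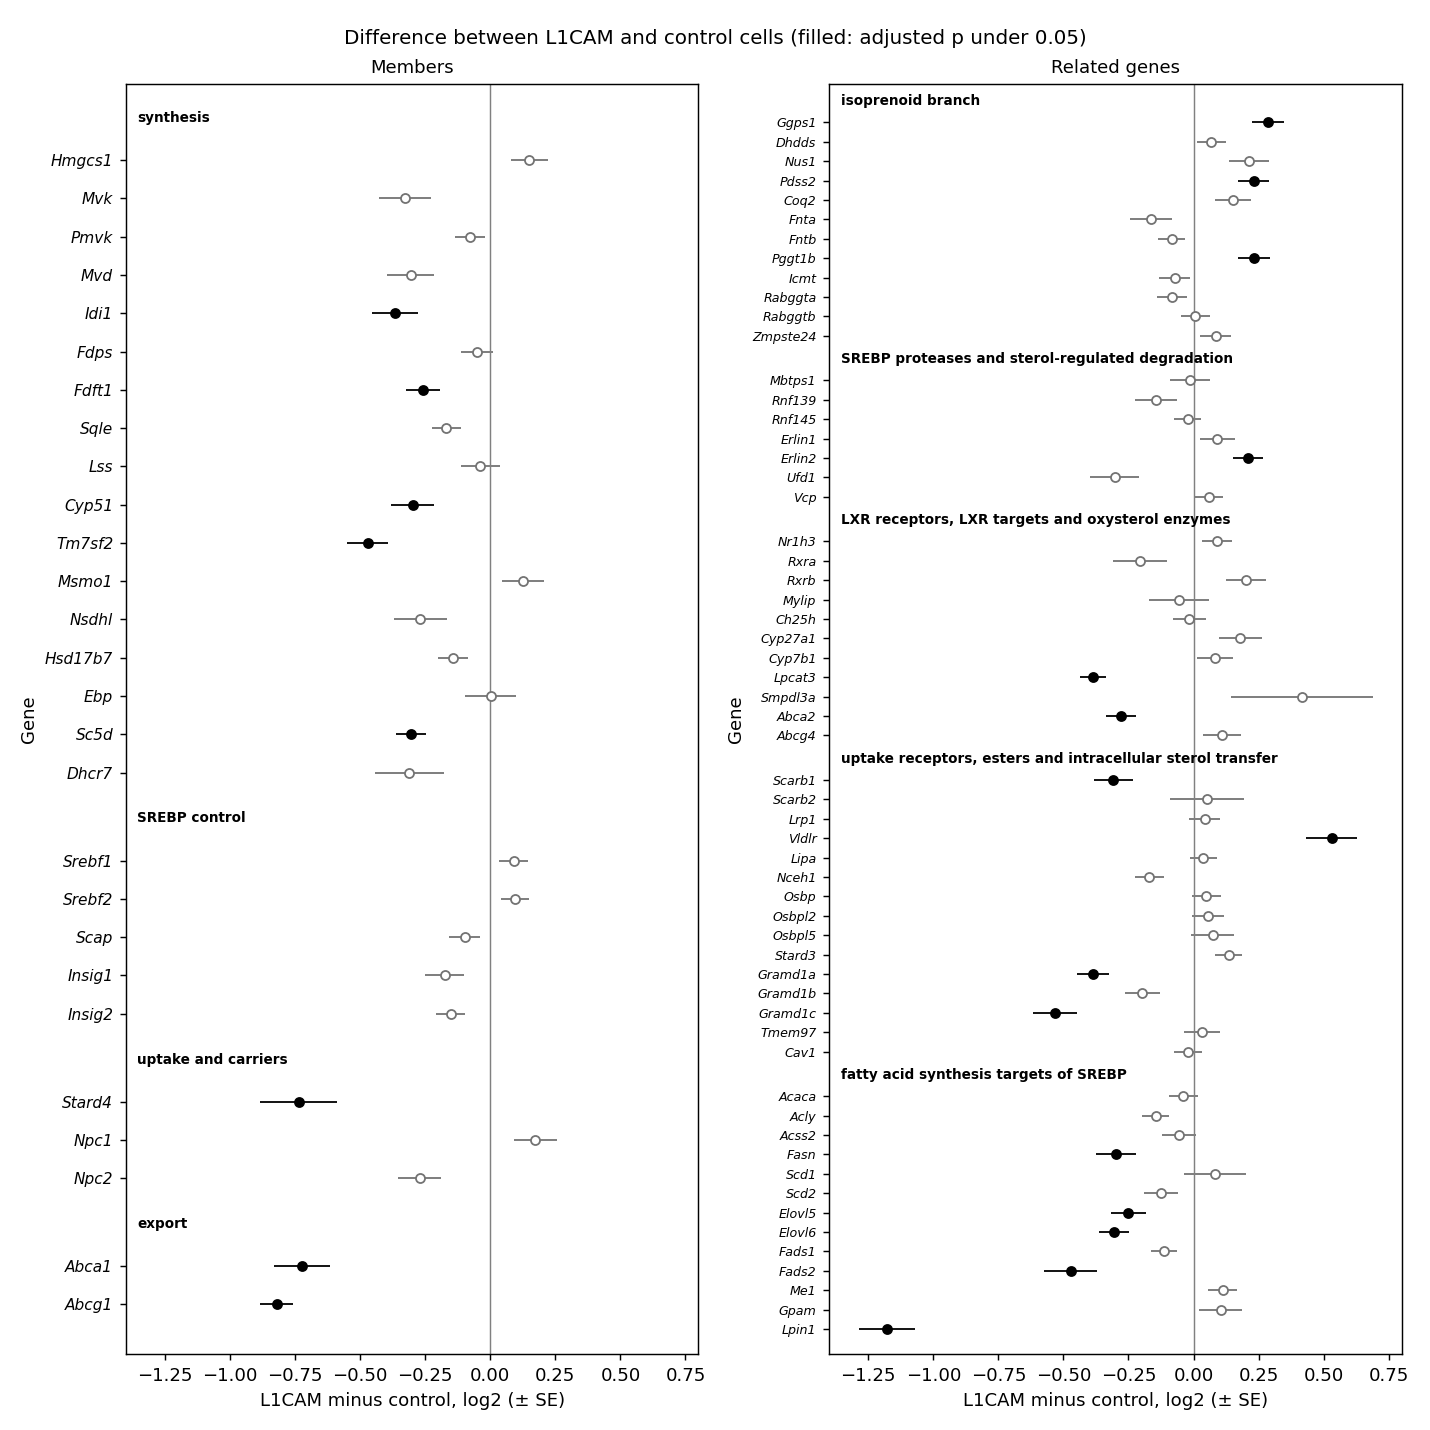
Difference between L1CAM and control cells (log2, L1CAM minus control) with its moderated SE for the 27 measured members (left) and the 58 measured related genes (right), by role. Filled points have an adjusted p under 0.05; 8 members are filled, all to the left of 0, and Lpin1 lies farthest left at -1.18.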

How the data were processed

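Total RNA from 6 cultures was measured on 1 Affymetrix array each. The authors deposited log2 values for probe sets. The submitters' processing notes name RMA and Affymetrix Expression Console 1.1; no other setting is given in the sources used here. Array medians over 35512 probe sets were 6.55 to 6.58. No detection calls were used, and array number limits the precision. Genes were named from the platform annotation, checked by Entrez identifier against GRCm38.p6 RefSeq (0 symbols changed). The 21789 probe sets with 1 symbol gave 19938 genes, each represented by its probe set of highest mean. Group differences were fitted with lmFit and eBayes of limma 3.58.1 (R 4.3.3), two-sided, with Benjamini-Hochberg adjustment over all genes. SE is moderated. On simulated data for this comparison (19938 genes), 72% of genes changed by 0.5 on the log2 scale, and 94% of those changed by 1, were recovered. The simulated noise was independent for each gene, so it held no array-wide shift like that of L1CAM replicate 1. The smallest simulated size, 0.5, was larger than the difference of every called synthesis enzyme, so recovery at their sizes was not measured. Figures used matplotlib 3.10.9. Members and lists were chosen with earlier results of these data known. All members are named. Of each related list, up to 3 called genes per direction by size are named. A few further genes were picked after their values were seen (Gramd1b, Mylip, Nr1h3, Rxrb, Smpdl3a, Fasn, Elovl5). No called enzyme's promoter held TCACNCCAC, so the planned printing rule gave none and another choice was made.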

Additional observations from a re-analysis of the deposited data

How the results depend on the processing

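Besides leaving out each array, the results were recomputed after a second quantile normalization, with array medians set equal, with a filter on dim probe sets, with probe sets averaged per gene, with an intensity trend in the prior, with an ordinary linear model, with array weights and with a replicate block. Over all genes, 2999 calls in the report compare with 581 in an ordinary linear model, 5191 with array weights and 2067 with the replicate block. They numbered 3115 with array medians set equal and 1033 to 4952 with an array left out. The replicate block thus called 10.4% of all genes, against 15.0%. The dim filter called 3347 of 10092 genes (33.2%, against 15.0%). Members called lower, 8 in the report, numbered 12 with the dim filter, 1 with an ordinary linear model (Abcg1), 15 with array weights, 5 with the replicate block and 3 to 14 with an array left out. Members called higher, 0 in the report, numbered 1 with array weights (Npc1). Synthesis enzymes called lower, 5 in the report, numbered 3 with array medians set equal, 8 with the dim filter, 0 with an ordinary linear model, 10 with array weights, 2 with the replicate block and 1 to 9 with an array left out. Related genes called, 15 in the report, numbered 3 with an ordinary linear model, 8 with the replicate block and 4 to 21 with an array left out. Abcg1 kept its call in all of these fits, and Abca1 and Tm7sf2 in all but the ordinary linear model (adjusted p = 0.0779 and 0.0748). No called member changed sign in any of them. Arrays that share a number across the groups did not deviate together (correlations of -0.10, -0.10 and -0.03), so the numbers were not taken to pair the samples; the replicate block removed the calls of Idi1, Fdft1 and Cyp51. The cause of these changes was not tested.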
